A study of Rattus norvegicus with 10 samples.

Results

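Gss (ENSRNOG00000018964), the gene of glutathione synthetase, was followed through all 10 supraoptic nuclei (SONs) of the knockdown RNA-seq. It is 1 gene of the 32402 with a row in the count table. It was chosen because its difference between control and Creb3l1 knockdown SONs was already known from these samples, so that difference is described here and not tested. Beside it stand 4 other glutathione enzyme genes that have a row in the part of the study's knockdown table used here, Ggt7, Gstm4, Gpx8 and Gstt1. That part of the table holds 1999 genes, those with the smallest p in this very comparison, so these 4 were also selected on it.

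The SON of the hypothalamus holds the magnocellular neurones that make vasopressin and oxytocin. Male Sprague Dawley rats of 250 to 274 g at purchase, with food and water freely available, received an adeno-associated virus with a non-targeting shRNA in the left SON and one with a Creb3l1 shRNA in the right SON of the same animal, and SONs were collected by 1 mm punch with 3 weeks given as the time in the labels. There were 5 animals, hence 5 control and 5 knockdown SONs, and neither age nor genotype is given in the sources used here. All SONs carried a virus with a GFP reporter, and the study's methods name no cell type to which the shRNA was restricted. Because the control virus was always on the left, side and treatment cannot be told apart. The punch takes neurones, glia and vessels together, so fewer cells of a type and less RNA per cell cannot be told apart in any value given here.

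Glutathione is the main small thiol of cells. Glutamate cysteine ligase joins glutamate to cysteine, and glutathione synthetase then adds glycine to give the finished tripeptide. Glutathione peroxidases use it to reduce peroxides, glutathione S-transferases couple it to reactive molecules, and gamma-glutamyltransferases begin its breakdown outside the cell. The endoplasmic reticulum, in which neuropeptide precursors fold and form disulfide bonds, keeps its own glutathione pool more oxidised than the cytosol.

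In GRCr8, the RefSeq rat assembly, Gss lies on the minus strand of chromosome 3. Its promoter window, 250 bases before to 50 after the start, is chr3:164538257-164538556. The counts were made on the older build Rn6, and this window is used only to show the sequence. Ggt7 lies 2 coding genes away on the same strand, with Acss2 between them. Myh7b, on the plus strand, overlaps Gss there by the outer bounds of both genes. Its promoter window, chr3:164558090-164558389, does not overlap that of Gss. Whether the 2 genes overlap in Rn6 was not examined. The strand setting used for counting is not given in the sources used here, so reads from any overlap may be shared. Of the 20 coding genes nearest to Gss, 10 on each side, only Ggt7 has a known identifier in the count table. The windows of Gss, of its neighbour Ggt7 (chr3:164461581-164461880, minus strand) and of Slc25a40 (chr4:26631334-26631633, minus strand), the glutathione gene with the pattern most like that of Gss, are shown with capitals for every match to the 4 motifs searched.
Gss: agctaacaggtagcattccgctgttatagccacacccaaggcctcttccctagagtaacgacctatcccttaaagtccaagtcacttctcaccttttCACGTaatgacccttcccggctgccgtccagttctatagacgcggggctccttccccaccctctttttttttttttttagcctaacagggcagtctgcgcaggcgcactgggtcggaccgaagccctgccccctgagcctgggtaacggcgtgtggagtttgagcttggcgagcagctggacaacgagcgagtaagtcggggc
Ggt7: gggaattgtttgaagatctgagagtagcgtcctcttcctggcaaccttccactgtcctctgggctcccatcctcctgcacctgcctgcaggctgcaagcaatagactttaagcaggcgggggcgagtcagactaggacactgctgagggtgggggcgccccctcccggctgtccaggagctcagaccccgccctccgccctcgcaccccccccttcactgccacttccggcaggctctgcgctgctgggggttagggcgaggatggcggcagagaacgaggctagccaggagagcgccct
Slc25a40: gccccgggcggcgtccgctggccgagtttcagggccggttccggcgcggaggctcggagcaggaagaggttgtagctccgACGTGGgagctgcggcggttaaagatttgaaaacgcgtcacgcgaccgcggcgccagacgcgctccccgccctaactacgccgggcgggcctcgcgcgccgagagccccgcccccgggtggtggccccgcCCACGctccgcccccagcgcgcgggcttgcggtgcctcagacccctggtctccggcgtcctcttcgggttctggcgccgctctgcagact

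The motifs were the cyclic AMP response element core TGACGT, the CCACG part of the endoplasmic reticulum stress element, the sequence ACGTG and the antioxidant response element core TGACNNNGC, each on both strands. ACGTG and CCACG can overlap. The Gss window held 1 ACGTG, which 19.3% of all 33469 RefSeq promoter windows also hold, starting at position -153 on the opposite strand. It held none of the other 3 motifs, which occur in 7.94% (TGACGT), 31.6% (CCACG) and 12.1% (TGACNNNGC) of the windows. The Ggt7 window held none of the 4. The Slc25a40 window held 1 ACGTG and 2 CCACG, of which 1 overlaps the ACGTG. Among the other glutathione genes, the Gstm4 window held 1 TGACGT and 1 CCACG, and the Mgst1 window held none. Gpx8 and Gstt1 had no entry. These matches are a description of the letters in the windows.

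The depth was between 29754252 and 34382889 counts per control SON and between 29020948 and 33612965 per knockdown SON. Values are given as TMM-normalised CPM, counts scaled to the size of each library and then for its composition. Creb3l1, the target of the shRNA, had between 20.3 and 33.5 CPM in control SONs and between 7.10 and 16.7 in knockdown SONs. The groups did not overlap, as for 5.5% of the 16286 genes tested with every knockdown SON below every control SON. Every animal had less of it in the knockdown SON, as for 10.1% of these genes.

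Gss was lower in the knockdown SON of 5 of 5 animals, as were 10.1% of the 16286 genes tested. In control SONs it had 44.5, 34.8, 43.7, 41.8 and 37.5 CPM in animals 1 to 5, a mean of 40.5 ± 4.17 (SD, n = 5). In the knockdown SONs of the same animals it had 17.8, 18.7, 23.0, 19.1 and 17.8 CPM, a mean of 19.3 ± 2.17 (SD, n = 5). The groups did not overlap, and 11.7 CPM lay between the lowest control SON, that of animal 2, and the highest knockdown SON, that of animal 3. A group of knockdown SONs wholly below the controls was found for 5.5% of the 16286 genes tested. The knockdown level was 47.6% of control, and the log2 fold change from edgeR's fit across all genes was -1.07 (standard error 0.10). Across all genes tested the median log2 fold change was 0.04.

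**Figure D1:**
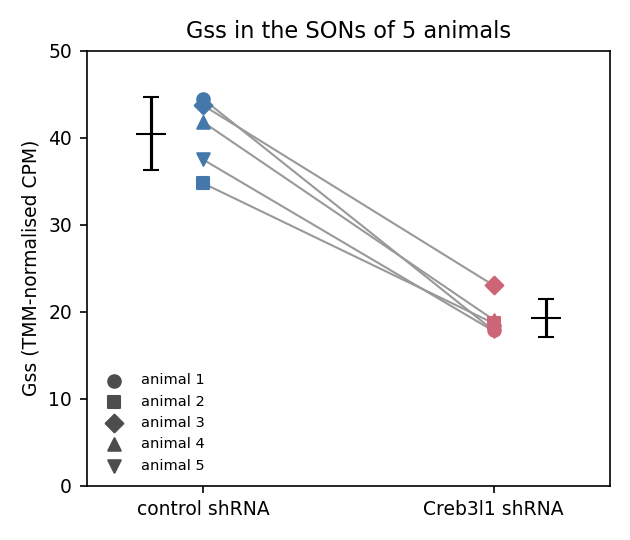
Gss in TMM-normalised CPM (vertical axis) in the control and Creb3l1 knockdown SON of each of the 5 animals. Symbols and lines mark the animals, and the horizontal marks with bars show the group means with SD, 40.5 ± 4.17 and 19.3 ± 2.17; every line goes down and the knockdown SON of animal 3 is the highest of its group.

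The ratio within an animal ranged from 40.1% to 53.7%. Gss in the knockdown SON was 40.1% of the control SON in animal 1, 53.7% in animal 2, 52.7% in animal 3, 45.6% in animal 4 and 47.4% in animal 5. Animals 1 and 2 mark both ends of this range, and the knockdown SONs of these animals had nearly the same level (17.8 and 18.7 CPM), while their control SONs were the highest and the lowest of the control group. The spread in ratio between these animals thus lay in the control SON. In log2 units the ratios had an SD of 0.17, against a counting error of 0.07 per ratio, and counting accounted for 17.7% of the variance of the ratios. Gss rested on 529 to 1522 counts per SON, which gives a counting error of 2.56% to 4.35%, and these values cover counting error only.

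The coefficient of variation of Gss was 10.3% in control and 11.3% in knockdown SONs. Among the 5729 genes with a mean of 0.5 to 2 times that of Gss, the median was 12.0% in control and 13.1% in knockdown SONs, and 40.7% and 41.0% of these genes varied less than Gss. In knockdown SONs this spread rested on the SON of animal 3, without which the coefficient of variation of Gss was 3.47%. Among all 16286 genes tested it had the 192nd largest fall in log2 fold change. Genes with larger falls were mostly not of its abundance. In the band of 0.5 to 2 times its mean Gss stood at rank 15, and among the 1932 genes in a narrower band around its mean it had the largest fall. These ranks describe the comparison on which Gss was chosen.

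**Figure D2:**
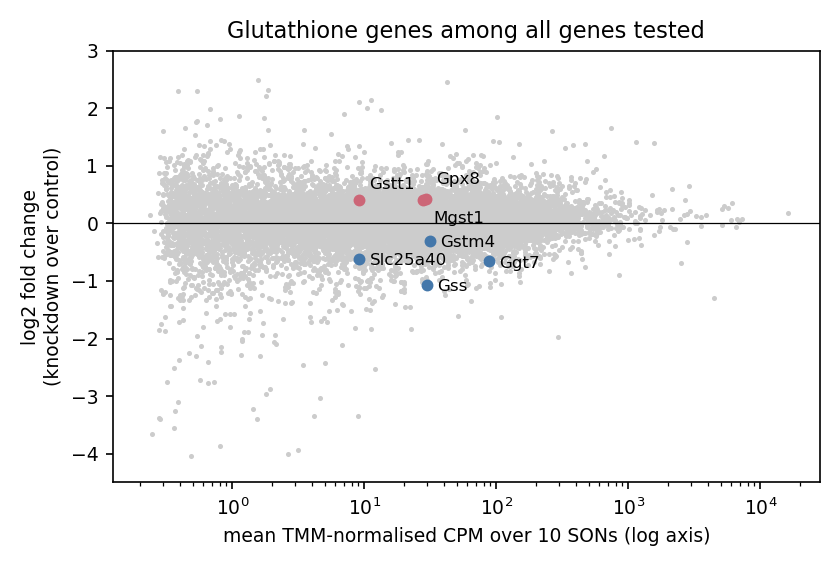
Log2 fold change of knockdown over control (vertical axis) against the mean TMM-normalised CPM over 10 SONs (horizontal log axis) for the 16286 genes tested, in grey. Gss and 6 other glutathione genes are marked, blue where lower and red where higher in knockdown SONs; Gss lies at -1.07, below the other 6.

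Gss and Creb3l1 were both lower in each knockdown SON, but the animals were ordered differently by the size of the difference. Creb3l1 in the knockdown SON was 35.04% of control in animal 1, 52.2% in animal 2, 28.3% in animal 3, 49.7% in animal 4 and 58.4% in animal 5. Animal 3 had the lowest Creb3l1 by this measure and the second highest Gss. Among the knockdown SONs, Gss was 17.8 CPM in the SON with the least Creb3l1 (7.10 CPM) and 19.1 CPM in the SON with the most (16.7 CPM). With 5 animals no correlation between the ratios of both genes was computed. The correlation of their levels over all SONs is given below, with those of other genes, as a description.

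**Figure D3:**
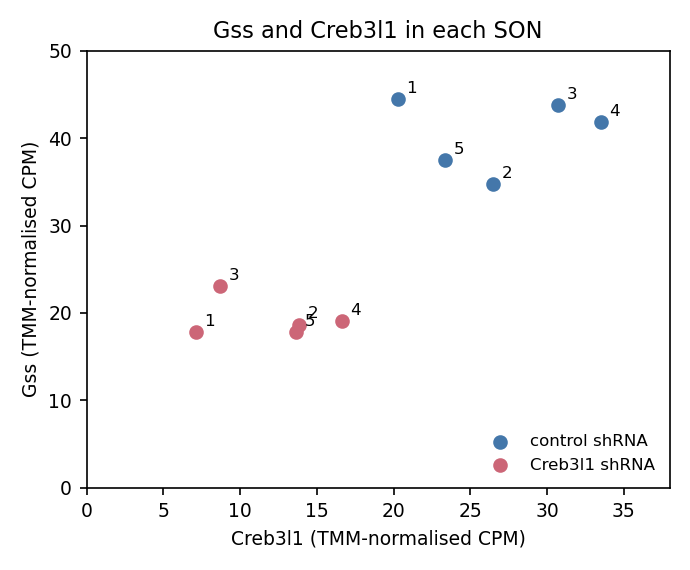
Gss (vertical axis) against Creb3l1 (horizontal axis), both in TMM-normalised CPM, in the 10 SONs, with the number of the animal beside each point. The control SONs lie at 34.8 to 44.5 CPM of Gss and the knockdown SONs at 17.8 to 23.0, and within the knockdown group the SON of animal 3, with 8.69 CPM of Creb3l1, has the most Gss.

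The other glutathione genes were taken from 6 lists of 75 symbols in all, of which 7 have a known identifier in the count table, Gss included. Genes of the other symbols were not analysed here, among them Gclc and Gclm, both subunits of the enzyme that acts just before glutathione synthetase. In edgeR's quasi-likelihood test with a Benjamini-Hochberg adjusted p under 0.05, 4 of the 7 were past the threshold, against 7.86% of all genes tested. Gss, Gstm4 and Slc25a40 were lower, as were 4.49% of all genes, and Mgst1 was higher, as were 3.36%. The identifiers came from a table ordered by the same comparison, so nothing is read from this count. With DESeq2 all 7 were past the threshold, against 11.8% of the genes it tested (6.84% lower and 4.94% higher). With the animal as a replicate block only Gss was, against 0.0553% of all genes (0.043% lower and 0.0123% higher). Gss was chosen on this comparison, so its passing in any of these fits is not read as a result.

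Of the lists for glutathione breakdown (14 symbols) and for other glutathione enzymes and carriers (9 symbols), 1 gene each has a known identifier, Ggt7 and Slc25a40. Ggt7, a member of the gamma-glutamyltransferase family, had 85.6, 121, 109, 110 and 113 CPM in the control SONs of animals 1 to 5 and 66.5, 67.6, 101, 58.0 and 48.0 in their knockdown SONs. It was lower in 5 of 5 animals, as were 10.1% of all genes tested, but the knockdown SON of animal 3 lay within the control range. Its log2 fold change was -0.66 (standard error 0.18), not past the threshold in edgeR with all SONs and TMM factors, but past it with DESeq2, limma-voom, RLE factors, library size only or a stricter filter, and without the knockdown SON of animal 3 or the control SON of animal 1. Although Ggt7 is a neighbour of Gss, its ratio to control followed another order over the animals, from 42.5% in animal 5 to 92.8% in animal 3. Slc25a40, a carrier of the inner mitochondrial membrane and a paralogue of the mitochondrial glutathione importer Slc25a39, had 11.5, 10.6, 11.3, 11.5 and 10.2 CPM in control SONs and 7.01, 7.69, 7.02, 7.25 and 7.002 in knockdown SONs. The groups did not overlap, where 5.5% of all genes tested had every knockdown SON below every control SON. The log2 fold change was -0.62 (standard error 0.09).

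Of 27 glutathione S-transferase symbols 3 have a known identifier. Of these, 1 was lower and 1 higher past the threshold, as were 4.49% and 3.36% of all genes tested. The 3 were linked through a selection on this same comparison, so nothing is read from this count. Of 15 symbols for glutathione reduction and peroxide removal 1 has a known identifier, Gpx8. Gstm4, a mu class glutathione S-transferase, had 38.3, 35.2, 33.9, 30.8 and 35.7 CPM in control SONs and 26.9, 27.6, 30.2, 28.6 and 27.1 in knockdown SONs. The groups were adjacent without overlap, where 5.5% of all genes tested had every knockdown SON below every control SON. The log2 fold change of -0.31 (standard error 0.07) was the smallest of the 7. Mgst1, a microsomal glutathione S-transferase, had 26.7, 20.1, 23.6, 24.5 and 24.3 CPM in control SONs and 30.4, 36.8, 26.5, 31.0 and 32.9 in knockdown SONs. It was higher in 5 of 5 animals (log2 fold change 0.40, standard error 0.10). The share of all genes higher in all 5 animals was not computed. The knockdown SON of animal 3 lay just below the control SON of animal 1. Mgst1 was not past the threshold with library size only. The same held when any SON but that of animal 3 in the knockdown group was left out. Gstt1, a theta class transferase, was at 7.10 to 8.31 CPM in control and 8.26 to 13.4 CPM in knockdown SONs (log2 fold change 0.42, standard error 0.13). Gpx8, a glutathione peroxidase family member of the endoplasmic reticulum, was at 20.4 to 27.5 CPM in control and 26.7 to 41.0 CPM in knockdown SONs (log2 fold change 0.43, standard error 0.13). Both were higher in 5 of 5 animals, overlapped between groups and were not past the threshold in edgeR with all SONs. Gpx8 was past it in edgeR without the knockdown SON of animal 3. The glutathione S-transferases have close paralogues whose reads the counting could split, so the values of Gstm4 and Gstt1 are uncertain.

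**Figure D4:**
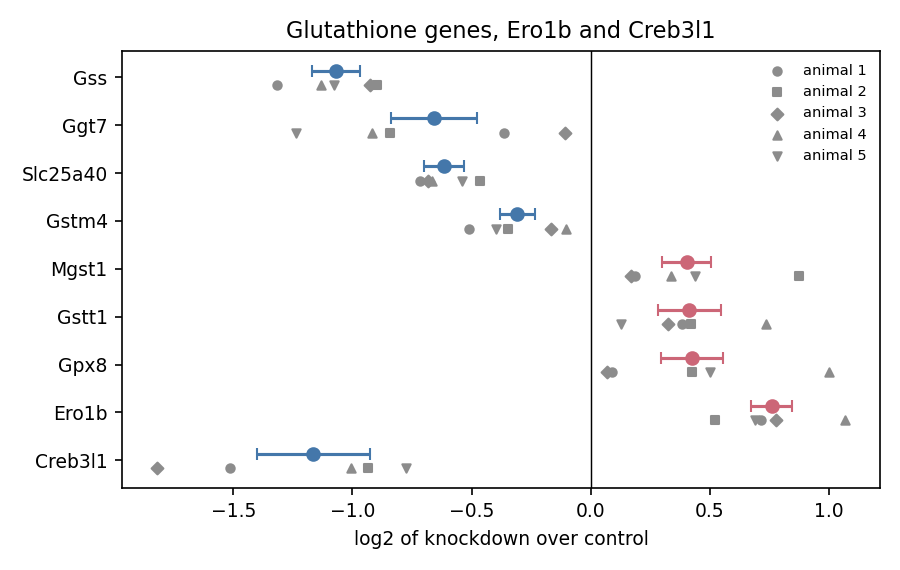
Log2 of knockdown over control for 7 glutathione genes, Ero1b and Creb3l1. Coloured points with bars give the log2 fold change and standard error from edgeR and grey symbols the ratio in each of the 5 animals. Gss, Ggt7, Slc25a40 and Gstm4 lie below 0 in every animal, as for 10.1% of all genes tested, and Mgst1, Gstt1, Gpx8 and Ero1b above 0.

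Of 7 genes for disulfide formation in the endoplasmic reticulum, 1 has a known identifier. This was Ero1b, an oxidase that passes disulfide bonds to protein disulfide isomerase. It had 20.9, 22.9, 22.3, 20.5 and 23.1 CPM in control SONs and 34.4, 32.9, 38.2, 43.0 and 37.3 in knockdown SONs, without overlap, where 4.16% of all genes tested had every knockdown SON above every control SON. Its log2 fold change was 0.76 (standard error 0.08). None of the 11 symbols for Nrf2 and its target genes could be linked, and they were not analysed here.

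The knockdown SON of animal 3 stood nearest to the controls for several of these genes. It had the most Gss, Ggt7 and Gstm4 of the 5 knockdown SONs and the least Gpx8 and Mgst1. It also had the most of the magnocellular markers Sim1, with 35.3 CPM against 15.6 to 29.9 in the other knockdown SONs, and Pdyn, with 259 CPM against 27.4 to 138. Without it, the mean of Gss in knockdown SONs was 18.3 ± 0.636 CPM (SD, n = 4) and its log2 fold change was -1.16, that of Ggt7 was -0.86, that of Gpx8 0.49 and that of Mgst1 0.45. Slc25a40 and Ero1b did not follow this, since the SON of animal 3 was at rank 3 and rank 2 from the highest. Over the 1280 genes past the threshold in edgeR, each knockdown SON's shift from the control mean was taken in the direction of the fold change. This SON had the smallest such shift for 45.5% of the genes, against 6.41% to 27.3% for the other 4. Its Creb3l1 level of 8.69 CPM was below every control SON. The part of this SON's other differences in its Gss level was not tested.

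**Figure D5:**
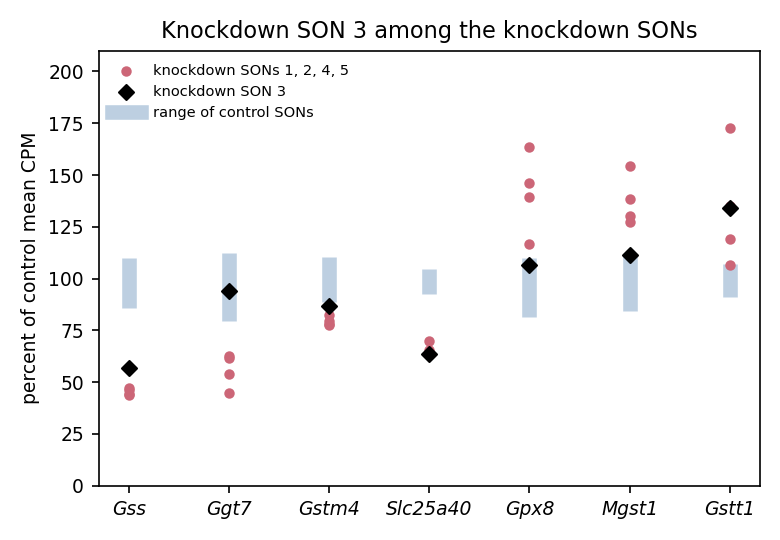
Level of 7 glutathione genes in each knockdown SON as percent of the control mean (vertical axis), with the SON of animal 3 as a black diamond, the other 4 as red points and the range of the 5 control SONs as a blue band. The diamond is the point nearest to or inside the band for Gss, Ggt7, Gstm4, Gpx8 and Mgst1, and not for Slc25a40 and Gstt1.

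Markers of cell types moved with the treatment as well. Of 7 magnocellular marker symbols 3 could be linked, Creb3l1 itself, the transcription factor Sim1 and the dynorphin precursor Pdyn, and all were detected in every SON. Their summed level was 409 to 706 CPM in control and 56.6 to 303 CPM in knockdown SONs. In control SONs most of this sum was Pdyn, with a mean of 470 CPM against 55.3 for Sim1 and 26.9 for Creb3l1. Creb3l1 is the target of the shRNA, and the study also reports less Pdyn RNA by qRT-PCR after the knockdown. The number of these neurones was not measured, and fewer of them and less RNA per cell cannot be told apart in this sum. Sim1 was at 44.3% of control (log2 fold change -1.18, standard error 0.23) and Pdyn at 25.5% (-1.97, standard error 0.48), beside 47.6% for Gss. In animal 3 Sim1 was at 79.3% and Pdyn at 62.2% of the control SON, the highest ratios of the 5 animals, and without its knockdown SON the log2 fold changes were -1.37 and -2.50. The 1 linked neuronal marker of 8, the neurofilament gene Nefm, was at 116 to 189 CPM in control and 195 to 298 in knockdown SONs, and the 1 linked marker of 9 for the oligodendrocyte lineage, Pdgfra, at 108 to 156 and 156 to 211 CPM. None of the listed markers of astrocytes, microglia, endothelium and lymphocytes could be linked. The linked markers were selected by the same comparison, and their part in the level of Gss was not tested.

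Genes with a pattern like that of Gss were sought among 14818 genes with a mean of at least 1 CPM, by Pearson's r of log2 CPM with Gss over the 10 SONs. All points share their libraries and the treatment groups, so a high r follows in part from any clear difference between the groups, and r is given as a description. Ctr9, a subunit of the PAF1 complex that travels with RNA polymerase, was the most alike (r = 0.99), with 114 ± 3.18 CPM in control and 85.5 ± 2.51 in knockdown SONs (SD, n = 5 in each group). Next came Tslp, a cytokine, at 3.98 ± 0.512 and 1.53 ± 0.268 CPM (SD, n = 5 in each group), and Mtfr1l, both with r of 0.99, then Cd320, Cnot11, Lins1, Noa1, Ldah, Xylb and Lexm, all with r of 0.98. All 10 were lower in knockdown SONs, with log2 fold changes from -2.03 for Lexm to -0.40 for Mtfr1l. After the group means were subtracted, only differences between SONs of 1 group remained. Ctr9 was then again first (r = 0.92), and the neuropeptide gene Cartpt was at rank 5 (r = 0.88). In the knockdown SON of animal 3, Gss (23.0 CPM) and Cartpt (26.2 CPM) both lay far above the other knockdown SONs. Of the glutathione genes, Slc25a40 ranked 24th of the other 14817 genes over the 10 SONs (r = 0.97) and 1146th after subtraction (r = 0.41). Ggt7, Gstm4 and Creb3l1 had r of 0.81, 0.89 and 0.81 over the 10 SONs and 0.33, 0.33 and -0.13 after subtraction. The magnocellular markers Pdyn and Sim1 had r of 0.90 and 0.89 over the 10 SONs. After subtraction they had 0.68 (rank 133) and 0.44 (rank 938), both above the r of Slc25a40 there. Among knockdown SONs, that of animal 3 also had the most Pdyn and Sim1. No r was computed without this SON, so its weight in these values was not tested.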

How the data were processed

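Poly(A) RNA of 10 SONs from 5 animals was sequenced from stranded libraries. The authors trimmed reads at phred 30, aligned them to Rn6 with STAR and counted them with featureCounts, and deposited raw counts per gene without normalisation. The versions of STAR and featureCounts, the strand setting and the handling of multi-mapped reads are not given in the sources used here. Columns were matched to samples by the file header and checked against the normalised counts of the study's table. Its fold changes and p adjusted values were not used. Symbols came from its first sheet, 1999 genes, and RefSeq sequences from GRCr8.

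The tests ran in R 4.3.3 with edgeR 4.0.16 on the deposited counts, using filterByExpr (minimum count 10, 16286 genes), TMM factors, the quasi-likelihood test without an animal term, and Benjamini-Hochberg adjustment over all genes at 0.05. The self-test used simulated data. Gss and the lists were chosen with earlier results of these data known. Named genes were Gss, Creb3l1, the table's glutathione genes, list members, linked genes beside Gss and the genes most like it over the 10 SONs (log2 CPM with prior count 2). Left and right SONs came from the same animal. Their deviations from the group means correlated at -0.12, 0.45, -0.44, -0.32 and -0.55 over 16286 genes. No replicates agreed within sampling noise (lowest chi-square per degree of freedom 29.1). Alternatives were DESeq2 1.42.0, limma-voom (limma 3.58.1), RLE factors, scaling by library size only, other filters, the replicate block and leaving out each SON.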

Additional observations from a re-analysis of the deposited data

Results flagged for a closer look

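The highest or lowest SON of a group lay far from the rest, by a gap over range above the 0.71 that Dixon's table gives, in 3 of the 60 groups examined (5 SONs of 1 treatment, per gene). About 1 group in 20 does so by chance. Gss in the knockdown SON of animal 3 was 23.0 CPM, against 17.8 to 19.1 in the other knockdown SONs. Cartpt in the same SON was 26.2 CPM, against 6.57 to 11.2. Prdx3 in the control SON of animal 4 was 83.2 CPM, against 96.3 to 98.1 in the other control SONs.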

How the results depend on the processing

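Gss kept its direction under every alternative run, with log2 fold changes from -1.13 with library size only to -1.07 with the replicate block, and from -1.16 to -1.04 with each SON left out. The other named genes also kept their direction, and of their 492 values under alternatives 487 moved by less than 1 SD between replicates. The median log2 fold change of all genes was -0.02 with library size only, against 0.04. The replicate block gave 9 genes past the threshold and 1 glutathione gene, Gss, against 1280 and 4 without it. DESeq2 gave 2188 and 7. Because Gss was chosen on this comparison, nothing is read from its place in these counts. The share of higher calls was 23.6% when scaling by library size only, against 42.8%. Leaving out 1 SON gave from 519 to 1699 genes, and 817, 558 and 613 without control replicates 2, 3 and 5 and 519, 614 and 834 without knockdown replicates 1, 2 and 4. The glutathione count went from 2 to 6, and was 2 without control replicates 2, 3 or 5 or knockdown replicates 1 or 2, where Gss and Slc25a40 were left. Ggt7 was past the threshold with DESeq2, limma-voom, RLE factors, library size only, at least 10 counts in every SON, and without control replicate 1 or knockdown replicate 3. Mgst1 was not past it with the replicate block, library size only, no filter, or any SON left out other than knockdown replicate 3. Gpx8 was past it only with DESeq2 and without knockdown replicate 3. The cause was not tested. Leave-one-out, added after the data were seen, put the coefficient of variation of Gss between 7.46% and 11.8% in control and between 3.47% and 12.9% in knockdown SONs, the lowest without the SON of animal 3. The share of like genes with a lower coefficient was 42.5% in control SONs with library size only and 39.6% in knockdown SONs with a narrower band of abundance. The strand setting of the counting is unknown, so any reads shared with Myh7b cannot be told apart.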

Other observations

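Peroxide handling by thioredoxin runs beside that by glutathione, and 3 of its genes were named here after their values were seen. Prdx3, a mitochondrial peroxiredoxin, had 94.3 ± 6.27 CPM in control and 78.2 ± 6.08 in knockdown SONs (SD, n = 5 in each group). Each of the 5 animals had less of it in the knockdown SON, as for 10.1% of all genes tested (log2 fold change -0.27, standard error 0.08). Txnrd2, the mitochondrial thioredoxin reductase, had 21.7 ± 2.54 and 17.3 ± 0.996 CPM (SD, n = 5 in each group) and was lower in 4 of 5 animals. Txnip, which binds and inhibits thioredoxin, had 207 ± 17.3 and 328 ± 65.0 CPM (SD, n = 5 in each group) and was higher in 5 of 5 animals (log2 fold change 0.66, standard error 0.14). Their identifiers came from the same table as those of the glutathione genes, so these values and the counts of animals are a description. The share of all genes higher in all 5 animals was not computed.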
